A study of Rattus norvegicus with 24 samples.

Results

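The genes described are 47 rat genes of skeletal muscle, chosen by name for their roles in the fibre. The array carried a probe for 35 of them, out of 36955 genes measured in the series, of which 8945 had a symbol. By role, probes were present for 10 of 13 fast fibre genes, 6 of 7 slow fibre genes and 3 of 7 other sarcomere genes. They were also present for 3 of 5 genes of excitation and calcium handling and 6 of 8 energy genes. Of genes of protein turnover 3 of 3 had a probe, and of regulators of muscle identity or growth 4 of 4. The 12 without a probe that could be matched by accession were Myh1, Myh2, Casq1, Tnnc1, Actn2, Tcap, Myoz1, Myot, Ryr1, Cacna1s, Ckmt2 and Pygm. The study gave Sprague-Dawley rats of 12 weeks 1 intraperitoneal injection of dihydrotestosterone (DHT, an androgen) at 10 mg/kg, or vehicle, and took RNA from 4 tissues 16 h later. Prostate, skin and forebrain came from males castrated 3 days before the injection, vehicle and DHT groups alike, and ovary came from intact females. Each tissue and treatment had 3 samples, each on an array of its own. One forebrain vehicle array is marked in its label as failing quality control, and it is not part of any test, which leaves 23 arrays. The labels name the tissues but not the body site of the skin, the tissue layers taken with it or whether samples were pooled. The design text calls the samples biological replicates, and the p-values reflect variation among these samples alone.

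Skeletal muscle contracts through sarcomeres, in which thick filaments of myosin pull on thin filaments of actin when calcium binds troponin. Fast and slow fibres use different genes for the same parts, so that myosin, troponin and calcium pump genes show which kind of fibre a sample holds. Rat skin carries a thin sheet of skeletal muscle, the panniculus carnosus, under the dermis, while skeletal fibres are no part of prostate glands, ovary or brain. Muscle itself responds to androgens, and its ubiquitin ligases are known to be restrained by them.

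Each level is the log2 processed signal relative to the 75th percentile of its own array, so that a difference of 1 is 2-fold, and levels of different genes are not set against each other because probes differ in brightness. That percentile was far lower on skin arrays, at a signal of 55.4 to 379, than on the arrays of the other tissues, at 486 to 2376. Known markers of skin, forebrain and ovary were present in the tissue of that label, and markers of prostate are not given here. The 7 keratinocyte genes were well above background on all 6 skin arrays, with a mean level of 4.60 to 5.56, and the 12 neuronal genes on all 5 forebrain arrays used, at 1.70 to 2.35. Ovarian steroidogenic genes, 12 on the array, had a mean level of 0.81 to 1.88 in ovary and of -5.62 to -3.55 in prostate and skin.

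Skin carried muscle RNA and the other tissues carried little of it. The 35 genes gave 4.37% to 10.6% of all signal on 5 of the 6 skin arrays, and 0.0232% to 0.0807% on the arrays of prostate, ovary and forebrain. The remaining skin array, vehicle array 1, was at 0.00917%, below every array of the other tissues. That share also counts genes that are bright in those tissues, such as Des in prostate and Pfkm in forebrain, and spots marked as outliers. Fast fibre genes alone had a median level of -1.86 on vehicle array 1. This was above the prostate arrays, at -3.91 to -2.76, and within the range of ovary and of forebrain. In a limma fit over all 33846 genes and all 4 tissues, with slide as a random block, 32 of the 35 genes were higher in skin than in prostate and none was lower, where 32.6% of all genes were called higher, 26.8% lower and 59.4% either way. Against ovary 34 were higher and none lower, with backgrounds of 25.2% higher, 30% lower and 55.2% either way. Against forebrain 29 were higher and 1 lower, with backgrounds of 36.8%, 28.2% and 65.1%. The median difference was 6.84 to prostate, 7.26 to ovary and 6.11 to forebrain, against medians over all genes of 0.37, -0.06 and 0.43. Without scaling between arrays the splits were 26 higher and 4 lower against prostate, 23 and 5 against ovary, and 25 and 3 against forebrain.

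**Figure D1:**
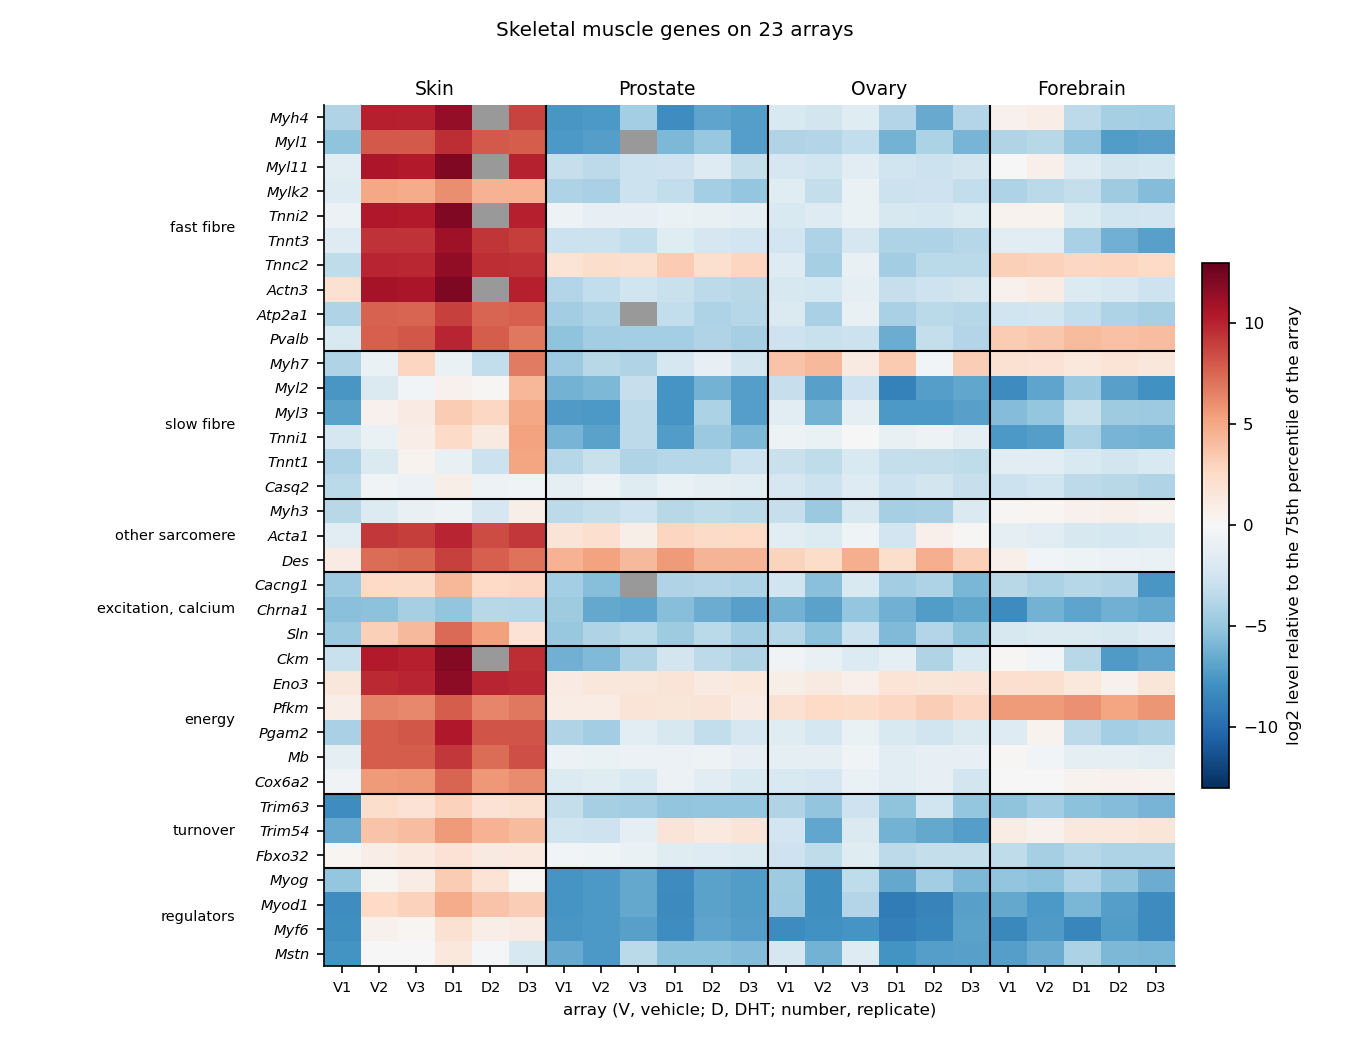
Level of the 35 skeletal muscle genes (rows, grouped by role) on the 23 arrays used (columns, grouped by tissue), as log2 signal relative to the 75th percentile of the array. Colour gives the level and grey marks spots that the scanner software called outliers, and skin vehicle array 1 is below the other 5 skin arrays in all 35 rows.

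Among fast fibre genes, Myh4 is the fast 2B myosin heavy chain. Its levels in skin were -3.90, 10.16 and 9.99 on vehicle arrays 1 to 3, and 11.46 and 8.82 on DHT arrays 1 and 3. The spot of DHT array 2 was marked as an outlier and left out, at a deposited level of 9.62. In prostate Myh4 lay between -8.03 and -4.43, and it was well above background on 1 of the 6 arrays. That was prostate vehicle array 3, which had 1531 spots marked as outliers, against 2 to 273 on the other prostate arrays. The fitted difference between skin and prostate was 14.67 ± 1.77 (standard error, adjusted p = 1.93e-06). The other skin arrays were far above every prostate array, and skin vehicle array 1 was also above all 6 of them. Actn3, the alpha-actinin of fast fibres, differed by 12.73 ± 1.08 between skin and prostate and Myl11, the fast regulatory light chain, by 11.51 ± 1.45. Myl1, an alkali light chain of fast fibres, was not well above background on any prostate array that entered the fit, and skin was at least 2268-fold higher. Pvalb, the calcium buffer parvalbumin, is also made by a class of inhibitory neurons. In forebrain it lay between 3.28 and 4.12, and its difference to skin of 2.65 did not pass the test (adjusted p = 0.075). Tnnc2, the fast troponin C, was well above background on every prostate and forebrain array used, at 1.74 to 3.26 and at 2.60 to 3.13. It was 5.42 ± 1.52 higher in skin than in prostate (adjusted p = 0.0050).

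Slow fibre genes were less uniform. Tnni1, the slow troponin I, was higher in skin than in ovary by 1.86 ± 0.69 and than in prostate by 6.84 ± 0.69, where 1 of 6 arrays had it well above background, so that its level there is not well measured. Myh7, the slow and cardiac beta myosin heavy chain, was 3.10 ± 1.31 higher in skin than in prostate (adjusted p = 0.049). Its fitted level was lower in skin than in ovary by 2.43 (adjusted p = 0.13) and than in forebrain by 1.65 (adjusted p = 0.31), and neither difference passed the test. In ovary Myh7 was at 3.69, 4.20 and 1.13 on vehicle arrays and at 3.44, -0.37 and 3.19 on DHT arrays, so that the ovary groups overlapped. Casq2, the calsequestrin of slow and cardiac fibres, differed by 0.34 between skin and prostate and did not pass (adjusted p = 0.47).

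The remaining roles gave the same order of tissues for most genes. Ckm, the muscle creatine kinase, was 12.48 ± 1.70 higher in skin than in prostate, and Mb, the oxygen store myoglobin, 7.33 ± 1.04 higher. Desmin (Des), an intermediate filament that smooth muscle also makes, was between 4.23 and 5.58 in prostate, and its difference of 1.85 to skin did not pass (adjusted p = 0.059). Pfkm, the muscle phosphofructokinase, was between 5.11 and 5.90 in forebrain and differed from skin by 0.17 (adjusted p = 0.83). Myh3, the embryonic myosin heavy chain, was the 1 gene lower in skin than in forebrain, by 1.82 ± 0.57 (adjusted p = 0.0090). The regulators Myog, Myod1 and Myf6, transcription factors that set muscle fate, were well above background on no prostate array, and skin was at least 44.0-fold, 106-fold and 24.6-fold higher. Myf6 was also dim on every ovary and forebrain array, and skin was at least 39.2-fold and 37.0-fold higher.

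The myogenic factors bind E-boxes, and the promoters of 4 genes are shown because these genes carry the fast, slow, energy and turnover results. The sequences are the 250 bases before the RefSeq start of the gene in the GRCr8 build, read in the direction of the gene, and capitals mark the E-box CAGCTG. They lie at chr1:88189211-88189460 on the plus strand (Ckm), chr10:52421898-52422147 on the plus strand (Myh4), chr15:32438195-32438444 on the minus strand (Myh7) and chr6:30978476-30978725 on the minus strand (Trim54).
Ckm: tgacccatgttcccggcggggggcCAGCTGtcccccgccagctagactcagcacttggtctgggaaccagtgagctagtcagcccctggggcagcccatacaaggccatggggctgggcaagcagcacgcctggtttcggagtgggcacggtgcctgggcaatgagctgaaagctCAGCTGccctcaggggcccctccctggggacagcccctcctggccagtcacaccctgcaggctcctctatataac
Myh4: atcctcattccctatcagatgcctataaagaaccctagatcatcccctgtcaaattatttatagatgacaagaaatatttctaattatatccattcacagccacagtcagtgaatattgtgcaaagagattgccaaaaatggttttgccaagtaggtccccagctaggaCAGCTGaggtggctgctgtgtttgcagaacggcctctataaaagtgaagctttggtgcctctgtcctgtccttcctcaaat
Myh7: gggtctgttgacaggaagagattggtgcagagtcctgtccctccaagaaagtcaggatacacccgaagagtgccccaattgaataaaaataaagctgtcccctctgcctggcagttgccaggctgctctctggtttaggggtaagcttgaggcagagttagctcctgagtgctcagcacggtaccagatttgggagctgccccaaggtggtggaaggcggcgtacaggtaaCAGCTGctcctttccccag
Trim54: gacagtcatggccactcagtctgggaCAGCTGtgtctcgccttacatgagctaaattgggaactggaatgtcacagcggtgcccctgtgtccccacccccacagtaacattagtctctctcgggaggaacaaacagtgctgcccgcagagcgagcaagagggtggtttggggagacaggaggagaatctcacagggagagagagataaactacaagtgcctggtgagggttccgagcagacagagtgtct
The match in Ckm began 226 and 75 bases before the start, in Myh4 81, in Myh7 19 and in Trim54 224 bases before it. RefSeq promoters were found for 27 of the 35 genes, and 12 of these 27 (44.4%) held CAGCTG, which reads the same on both strands. Of all 33469 promoters of the same length, 12.0% held it. By role it was present in 3 of 8 fast fibre genes, 1 of 5 slow fibre genes, 3 of 6 energy genes and 2 of 2 turnover genes, and in neither of the 2 regulators with a promoter. TATAAA, searched on both strands, was in 37.0% of the members' promoters and in 12.9% of all. The MEF2 motif was in 1 member promoter, that of Cox6a2, 50 bases before the start, and in 0.523% of all promoters. A match is a description of these letters, and no binding was measured.

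Within skin, vehicle array 1 stood apart. All 35 genes were lower on it than on each of the other 5 skin arrays, while 5891 of the 24122 genes tested in skin (24.4%) had their lowest level there. The median difference to the other arrays was -8.81, from -13.98 for Myh4 to -1.11 for Fbxo32. That array had the highest 75th percentile of the 6. Without scaling the median was -7.30, with -9.97 for fast and -1.66 for slow fibre genes, and Chrna1 and Fbxo32 were above the median of the others, by 0.21 and 0.28. By role the median was -11.36 for fast fibre genes, -8.80 for energy genes, -10.14 for turnover genes, -8.30 for regulators and -3.26 for slow fibre genes. Of the 35 genes, 8 were not well above background on that array, among them Myl2 and Myl3 (slow and cardiac light chains), Trim63, Trim54, Myod1 and Myf6. At least 4 log2 units separated the array from the lowest of the others in 272 genes, of which 86 had a symbol, and 28 of these were among the 35. Its keratinocyte genes had a mean level of 5.56, against 4.60 to 5.43 on the other 5. Fewer muscle cells in the sample and less RNA per cell cannot be told apart in bulk tissue.

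DHT array 1 lay at the other end, with 10.6% of its signal from the muscle genes. Relative to each gene's median over the skin arrays, fast fibre genes were at 1.63 on it, against 0.11 and 0.00 on vehicle arrays 2 and 3, -0.03 on DHT array 2 and -0.30 on DHT array 3. It also had the lowest 75th percentile, at a signal of 55.4, and without scaling the fast fibre median there was 0.24, against 0.21 on DHT array 2. The same array was lowest for the 11 hair follicle genes, with a mean level of -1.80 against 2.18 to 3.55 on the other 5. The part of either value in the array's higher muscle level was not tested.

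DHT array 3 was high in slow fibre genes and not in fast ones. Leaving vehicle array 1 aside, all 6 slow fibre genes were above the median of the other 4 skin arrays on DHT array 3, by a median of 4.29. Fast fibre genes were below it in 9 of 10, by a median of -0.43. Without scaling the medians were 5.04 and 0.14. Myh7 was at -3.89, -0.83 and 2.74 on vehicle arrays 1 to 3 and at -0.89, -3.20 and 6.79 on DHT arrays 1 to 3. DHT array 3 was the highest, and the remaining DHT arrays lay within the vehicle range. Tnnt1, the slow troponin T, was at -4.06, -1.88 and 0.48 on vehicle arrays and at -0.92, -2.78 and 5.09 on DHT arrays. Tnni1 was at -2.21, -0.86 and 0.91 on vehicle arrays and at 2.45, 1.17 and 5.22 on DHT arrays, so that all DHT arrays were above all vehicle arrays. Casq2 was on DHT array 3 only 0.08 above the median of the other 4. Sarcolipin (Sln), a small inhibitor of the calcium pump, was at 1.86 on DHT array 3 and at 7.33 and 5.33 on DHT arrays 1 and 2, and myostatin (Mstn), a secreted inhibitor of muscle growth, was at -2.12 there and at 1.36 and -0.29. Embryonic Myh3 was 2.13 above the median of the other 4 on DHT array 3. Heart muscle genes, 8 on the array, had a mean level of -2.32 on DHT array 3 and of -4.53 to -3.27 on the other 5, and 5 of the 8 were well above background there, against 2 to 4.

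**Figure D2:**
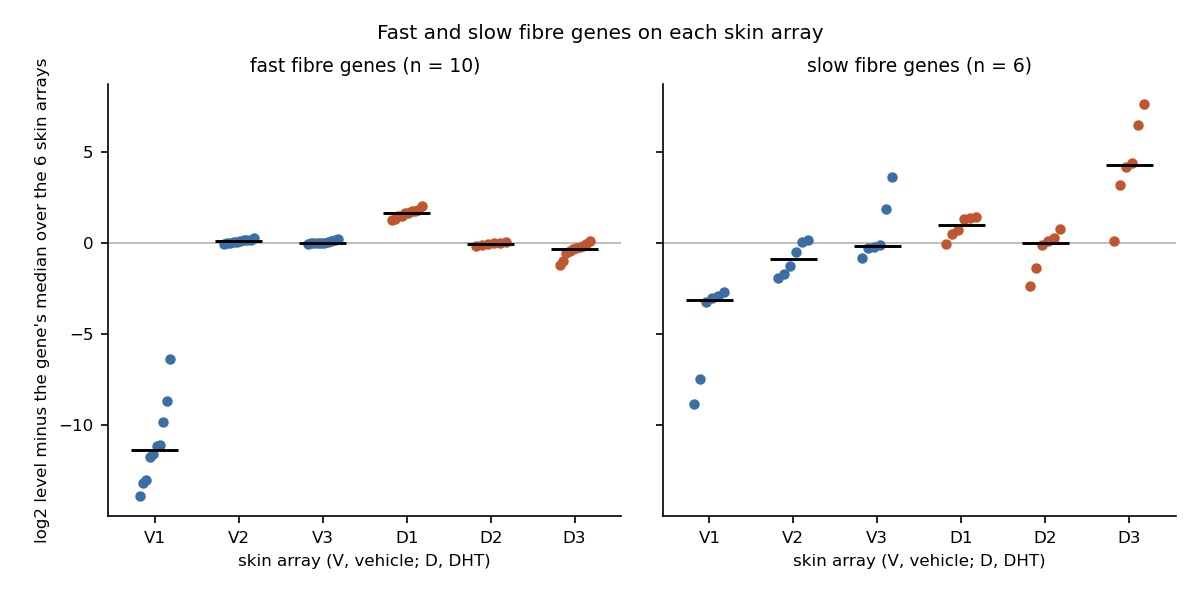
Level of the 10 fast fibre genes (left) and the 6 slow fibre genes (right) on each of the 6 skin arrays, as log2 difference from the gene's own median over these arrays (spots marked as outliers left out). Each point is a gene and each bar the median, which for fast fibre genes is -11.34 on vehicle array 1 and for slow fibre genes is 4.29 on DHT array 3.

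The comparison of DHT with vehicle in skin asks which genes the androgen changed there. No gene of the 24122 tested passed an adjusted p of 0.05 in limma, so that the background was 0% called, and 1192 genes (4.94%) had an unadjusted p under 0.05, of which the positive ones made 2.38% and the negative ones 2.56% of all genes. Of the 34 muscle genes tested (Chrna1, the muscle acetylcholine receptor subunit, was too dim) all had a positive log2 fold change, with a median of 3.61 and a range of 0.65 to 5.42, against a median of 0.05 over all genes. None was called, with adjusted p of 0.75 to 0.88, and 3 had an unadjusted p under 0.05. In 9 genes every DHT array was above every vehicle array, where 6.07% of all genes had this order, and 6.19% of all genes, but none of these, had the reverse order. The 9 were Myl2, Myl3, Tnni1, Cacng1 (a calcium channel subunit), Pgam2 (muscle phosphoglycerate mutase), Cox6a2 (a subunit of cytochrome oxidase), Trim54, Myod1 and Myf6. Vehicle array 1 was the lowest skin array for every muscle gene, against 24.4% of all genes. The reverse order could therefore not occur in them, and the shares over all genes are not a like background for these counts.

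These fold changes depended on vehicle array 1. Without it the median went from 3.61 to 0.60, 32 genes were positive and 2 negative, and no gene of 22946 was called (lowest adjusted p 0.998, 707 genes with an unadjusted p under 0.05). For fast fibre genes the median went from 4.37 to 0.37, for energy genes from 3.41 to 0.66 and for slow fibre genes from 2.97 to 1.98. Leaving out DHT array 3 as well gave medians of 0.89 for fast and 1.06 for slow fibre genes and 0.97 over all. Myh4, at the levels above, had a fold change of 4.73 ± 4.43 from 3 vehicle and 2 DHT arrays, and of 0.07 ± 0.89 without vehicle array 1. Ckm was at -2.94, 10.26 and 10.09 on vehicle arrays and at 11.92 and 9.63 on DHT arrays 1 and 3, with the outlier spot of DHT array 2 left out at 9.60. Its fold change went from 4.97 ± 4.15 to 0.60 ± 0.79. Myod1 was at -8.04, 2.61 and 3.02 on vehicle arrays and at 4.83, 3.74 and 3.20 on DHT arrays, which did not overlap. Its fold change went from 4.73 ± 2.83 to 1.11 ± 0.52. Fbxo32 (atrogin-1), a muscle ubiquitin ligase, changed least with the array, at 0.65 ± 0.37 and 0.35 ± 0.36.

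The slow light chains and Tnni1 kept the larger fold changes without vehicle array 1. Myl3 was at -7.00, 0.59 and 1.06 on vehicle arrays and at 3.25, 2.65 and 5.02 on DHT arrays. All DHT arrays were above all vehicle arrays, by 5.42 ± 2.10 with every array, by 2.81 ± 0.71 without vehicle array 1 and by 2.13 ± 0.43 with DHT array 3 left out too. The adjusted p was 0.752, 0.998 and 0.982. Myl2 was at -7.60, -1.85 and -0.40 on vehicle arrays and at 0.59, 0.14 and 4.27 on DHT arrays, and its fold change was 4.95 ± 1.99, then 2.79 ± 1.26 and 1.49 ± 0.58. Tnni1 gave 3.66 ± 1.18, then 2.92 ± 1.20 and 1.78 ± 0.73. For Myh7 the value went the other way, from 1.56 ± 2.77 to -0.06 ± 2.88 and to -3.00 ± 1.29, and for Tnnt1 from 2.29 ± 2.11 to 1.17 ± 2.24 and to -1.15 ± 0.95.

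**Figure D3:**
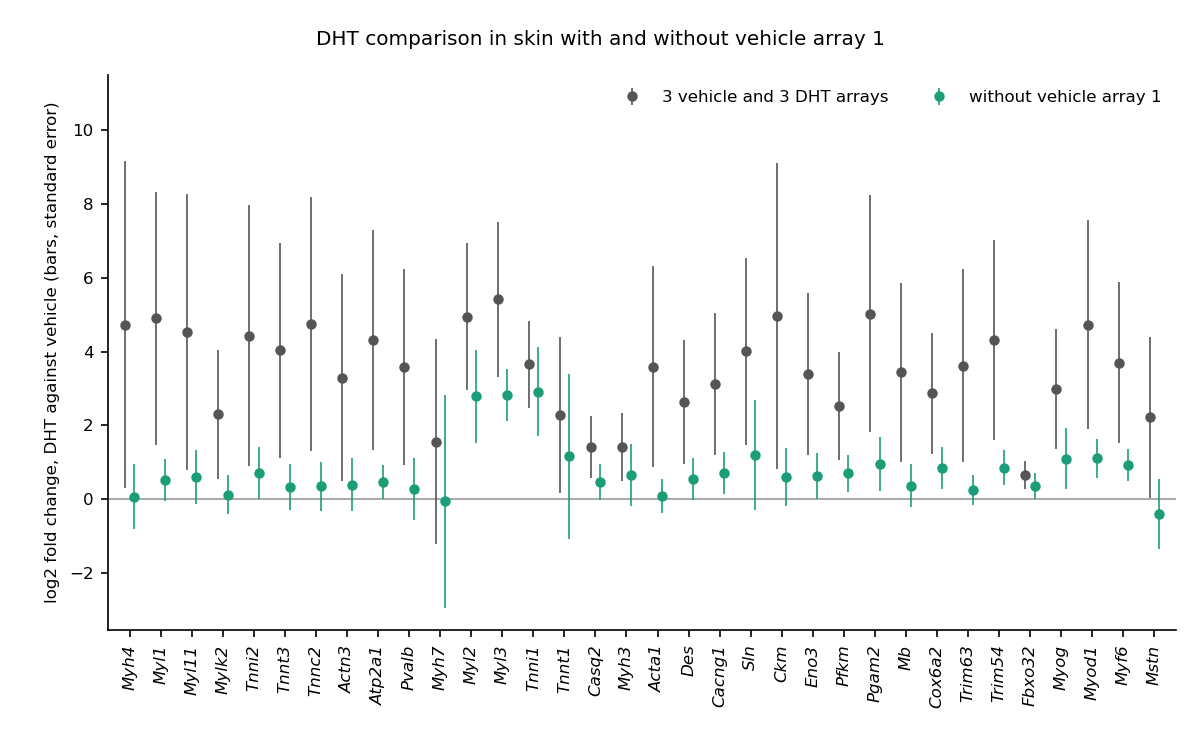
Log2 fold change of DHT against vehicle in skin for the 34 muscle genes tested, with all 6 skin arrays (grey) and without vehicle array 1 (green). Points are limma estimates and bars their standard errors, and the median is 3.61 with all arrays and 0.60 without vehicle array 1.

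With all arrays 20 of the muscle genes were among the 100 largest positive fold changes in skin, of which 35 had a symbol, and 8 more came from a list of 77 further skeletal muscle genes (35 on the array). Without vehicle array 1 the numbers were 3 and 2, and 14 of the 100 genes were in both lists. Genes at least 2-fold higher under DHT numbered 1559 with all arrays and 678 without the array, and genes at least 2-fold lower 1022 and 882. Without DHT array 1 in its place there were 985 higher and 464 lower. Of the further muscle genes 32 of 33 tested were positive, with a median of 2.42, none called and 12 with all DHT arrays above all vehicle arrays. That order too leans on vehicle array 1, which was at least 4 log2 units below the lowest other array in 20 further muscle genes. Csrp3, the muscle LIM protein of the Z-disc, was at -7.61, 2.72 and 2.94 on vehicle arrays and at 5.58, 5.53 and 6.22 on DHT arrays. It was therefore higher on every DHT array than on vehicle arrays 2 and 3 too, with a fold change of 6.42 ± 2.70 over all arrays (adjusted p = 0.75).

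Genes outside the lists, which do not hold every muscle gene, also lost their largest values without that array. Among those with a symbol, the 10 largest positive fold changes were those of Cav3, Eef1a2, Hjv, Asb12, Kcnj11, Abra, Trim55, 2310002L09Rikl, Isl1 and Rtn2, at 4.37 to 2.99. Cav3, the caveolin of muscle membranes, was at -6.32 on vehicle array 1 and between 4.42 and 6.49 on the other 5, and its fold change of 4.37 ± 2.85 was 0.75 without that array. For all 10 the value without it lay between 0.29 and 1.05. These genes were picked for their large values with that array in the fit, so that a fall without it was partly fixed by the choice. With the mean level of the muscle genes as a covariate, the 23967 genes outside the lists had 764 with an unadjusted p under 0.05, against 1177 without the covariate, 736 genes at least 2-fold higher, against 1490, and 856 at least 2-fold lower, against 1005. No gene was called either way by limma, and the covariate left 3 residual degrees of freedom in place of 4. On DHT array 2 the covariate, at 3.79, lacked the outlier spots of Myh4, Myl11, Tnni2, Actn3 and Ckm, deposited at 9.60 to 10.11. It is therefore a mean over fewer genes there and lower than a mean over the same genes would be. The 11 hair follicle genes, low on DHT array 1, were all negative in the skin comparison, with a median of -2.13 and none called.

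In prostate, DHT was compared in the tissue that depends most on androgens, and 3 of the 25 muscle genes tested were called, 2 higher and 1 lower. Over all 23738 genes 5.03% were called higher and 4.61% lower, 9.64% in all. Without scaling the split of all called genes was 111 higher and 1503 lower, in place of 1194 and 1094, and the muscle genes called were Trim54, Fbxo32 and Trim63, without Myh7. Trim54 (MuRF3), a ubiquitin ligase of the sarcomere, was at -2.60, -2.70 and -1.26 on vehicle arrays and at 1.67, 1.27 and 1.70 on DHT arrays. All DHT arrays were above all vehicle arrays, and Trim54 rose by 3.73 ± 0.40, or 13.3-fold (adjusted p = 0.0062). Myh7 was at -4.69, -3.65 and -3.86 on vehicle arrays and at -2.15, -1.12 and -2.43 on DHT arrays. It rose by 2.17 ± 0.42, or 4.50-fold (adjusted p = 0.028), with no overlap of the groups. Fbxo32 was at -0.36, -0.57 and -0.82 on vehicle arrays and at -1.56, -1.63 and -1.87 on DHT arrays, and it fell by 1.10 ± 0.18 on the log2 scale, or 2.14-fold (adjusted p = 0.018), again without overlap. Of the 3 turnover genes, 1 rose and 1 fell.

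The other prostate values did not pass. Trim63 (MuRF1), a relative of Trim54, was at -3.11, -4.27 and -4.51 on vehicle arrays and at -5.16, -5.06 and -5.06 on DHT arrays, with a fold change of -1.13 ± 0.36 (adjusted p = 0.10), and 1 DHT array had it well above background. Acta1, the skeletal alpha-actin, was at 1.70, 2.16 and 0.77 on vehicle arrays and at 2.77, 2.49 and 2.60 on DHT arrays, a difference of 1.08 ± 0.35 (adjusted p = 0.11). Ckm differed by 2.04 ± 0.67 (adjusted p = 0.11), and 1 of 3 vehicle arrays and all DHT arrays had it well above background. Counted by order alone, 7 genes had all DHT arrays above all vehicle arrays, with a background of 19.3%, and 2 had them below, with one of 16.5%. The median over the 25 genes was 0.21, with 17 positive, against 0.06 over all genes. Without scaling 7 were positive and the median was -0.57, against -0.72 over all genes. The spots of Myl1, Atp2a1 (the fast calcium pump) and Cacng1 on vehicle array 3 were marked as outliers and left out, at deposited levels of 5.10, 4.30 and -2.22. In all 10 genes were too dim to test, among them Myh4, Myl1 and all 4 regulators.

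Leaving out 1 prostate array changed which genes were called, except for Trim54. Without vehicle array 1 the calls were Cacng1 and Trim54 (702 of all 23305 genes called), and without vehicle array 2 Trim54 alone (692 of 23237). Without vehicle array 3 they were Ckm, Fbxo32, Myh7, Pgam2 and Trim54 (2746 of 22993). Without DHT arrays 1, 2 and 3 they were Fbxo32 and Trim54 (1188 of 22729), Trim54 alone (574 of 23592), and Myh7 and Trim54 (991 of 23282). With all arrays 2288 of 23738 genes were called, so that the calls over all genes moved as well. Adjusted p of Trim54 stayed between 0.0024 and 0.033, while that of Myh7 reached 0.079 and that of Fbxo32 0.070. Fat cell genes moved with the treatment in the same samples, since all 9 adipocyte genes tested were positive and 6 were called, with a mean level of 0.02 to 0.45 on vehicle arrays and 0.92 to 1.39 on DHT arrays. Of the 7 smooth muscle genes 5 were positive and none was called, with a median of 0.35. Their part in the muscle gene values was not tested. The myogenic factors Myog, Myod1 and Myf6 were not well above background on any prostate array, and of 23 further muscle genes tested 16 were positive, none was called and the median was 0.14.

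**Figure D4:**
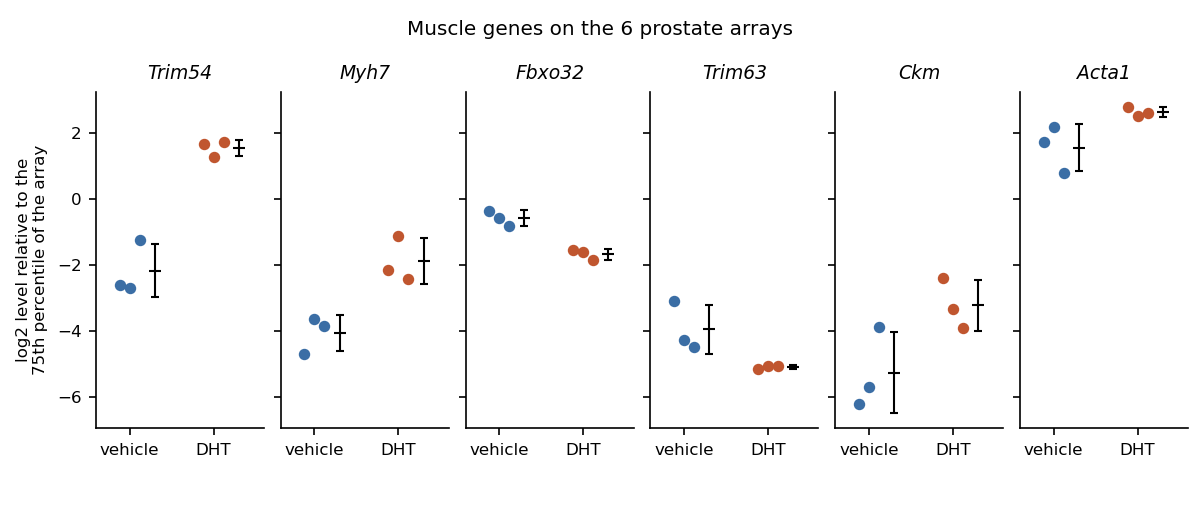
Level of 6 muscle genes on the 6 prostate arrays, as log2 signal relative to the 75th percentile of the array. Points are arrays (blue vehicle, orange DHT) and bars the mean with its standard deviation (n = 3), and in all but Ckm the groups do not overlap, although only Trim54, Myh7 and Fbxo32 passed the test.

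In forebrain the muscle genes were mostly lower after DHT, and none passed. Limma called 0 of 26361 genes (0%; lowest adjusted p 0.072), while 7234 (27.4%) had an unadjusted p under 0.05. Of the 28 muscle genes tested 21 were negative and 7 positive, and 20 had an unadjusted p under 0.05, 16 lower and 4 higher. Every DHT array was below both vehicle arrays in 18 genes and above them in 5, where 24.2% and 23.1% of all genes had these orders. The 18 lower ones were 8 of 10 fast fibre, 3 of 4 slow fibre, 2 of 3 other sarcomere, 4 of 6 energy and 1 of 3 turnover genes. The median was -2.59 over the 10 fast fibre genes, -0.88 over all 28 and -0.02 over all genes, and 8 muscle genes were among the 100 largest negative fold changes. Without scaling the median of all genes was 0.72, 12 of the 28 muscle genes were positive with a median of -0.14, and 2735 genes were called higher and 133 lower.

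Myh4 was at 0.58 and 0.82 on the vehicle arrays and at -3.37, -4.36 and -4.42 on the DHT arrays, a difference of -4.76 ± 0.36 (adjusted p = 0.072). Both vehicle arrays were far above the DHT arrays. Tnni2, the fast troponin I, was at 0.42 and 0.47 and then at -1.78, -2.56 and -2.48, a difference of -2.72 ± 0.27. Actn3 was at 0.60 and 0.92 and then at -1.76, -2.04 and -2.67, a difference of -2.91 ± 0.30, and Myl11 differed by -2.49 ± 0.29. All 3 had an adjusted p of 0.072. Tnnt3, the fast troponin T, was at -1.51 and -1.40 and then at -4.22, -6.20 and -7.01, a difference of -4.36 ± 0.82 (adjusted p = 0.073). Ckm was at 0.10 and -0.35 and then at -3.63, -7.39 and -6.82, a difference of -5.82 ± 1.15 (adjusted p = 0.076). Both were well above background on 1 of the 3 DHT arrays. Pgam2 was at -1.69 and 0.44 and then at -3.40, -4.44 and -4.16, a difference of -3.37 ± 0.68, and Mb differed by -1.17 ± 0.19.

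Not every muscle gene was lower in forebrain. Pvalb was at 3.28 and 3.48 on the vehicle arrays and at 4.12, 3.86 and 4.06 on the DHT arrays, a difference of 0.63 ± 0.15 (adjusted p = 0.087). Cox6a2 was at -0.09 and 0.02 and then at 0.50, 0.59 and 0.48, and Trim54 at 0.97 and 0.54 and then at 1.37, 1.37 and 1.60. In these 3 genes all DHT arrays were above both vehicle arrays. Myh7, at 1.96 and 1.90 and then at 1.39, 1.76 and 1.50, differed by -0.38 ± 0.16 (adjusted p = 0.19). Of 27 further muscle genes tested 15 were positive, with a median of 0.17, and among those with the smallest p were Trdn (-1.52 ± 0.26), Cacnb1 (0.79 ± 0.14) and Cox8b (-2.32 ± 0.44). Cell type markers differed between the groups as well. All 12 neuronal genes were positive, with a mean level of 1.70 to 1.75 on vehicle and 2.17 to 2.35 on DHT arrays, and all 11 myelin and glia genes were negative, at 2.44 to 2.69 and 1.50 to 2.08. Markers of other tissues were mixed. Negative were 5 of 6 fibroblast genes (3 with an unadjusted p under 0.05), 5 of 6 adipocyte genes (2) and 4 of 5 hair follicle genes. The fibroblast and adipocyte medians were -0.41 and -0.34, with Col3a1 (-0.81 ± 0.14) and Adipoq (-3.30 ± 0.91) the lowest. Positive were 4 of 6 smooth muscle, 2 of 5 keratinocyte, 2 of 5 prostate epithelium and 3 of 7 ovarian steroidogenic genes. Of 5 heart muscle genes 3 were negative, with a median of -0.44. Their lowest was the cardiac troponin I gene Tnni3 at -2.81 ± 0.50. None was called. The part of these lists in the muscle gene values was not tested. Without DHT array 1 Myh4 passed (adjusted p = 0.029), and it was then the 1 gene called.

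**Figure D5:**
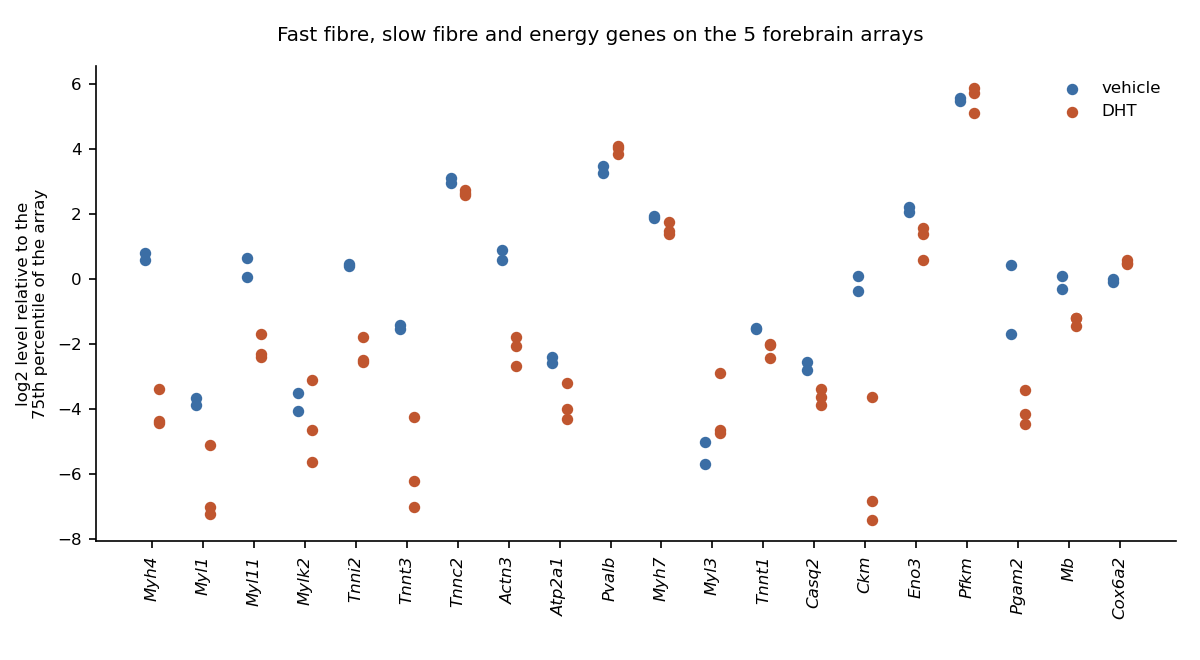
Level of the tested fast fibre, slow fibre and energy genes on the 5 forebrain arrays used, as log2 signal relative to the 75th percentile of the array. Each point is an array (blue, 2 vehicle arrays; orange, 3 DHT arrays), and Myh4 is at 0.58 and 0.82 on vehicle and at -4.42 to -3.37 on DHT arrays.

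In ovary no muscle gene and none of all 29400 genes was called by limma (0%; lowest adjusted p 0.12, 3076 genes or 10.5% with an unadjusted p under 0.05, nearly all of them lower, at 10.2%). Of the 29 muscle genes tested 24 were negative, with a median of -0.63 against -0.23 over all genes. All DHT arrays were below all vehicle arrays in 5 genes, with a background of 11.1%, and above them in 2, with one of 2.7%. Myh4 was at -1.98, -2.40 and -1.57 on vehicle arrays and at -3.77, -6.52 and -3.77 on DHT arrays, without overlap and with a difference of -2.70 ± 0.79 (adjusted p = 0.44). Eno3, the muscle enolase, was at 0.77, 1.17 and 0.64 and then at 1.73, 1.58 and 1.68, a difference of 0.80 ± 0.24 (adjusted p = 0.46). Trim54, which rose in prostate, was at -2.45, -6.80 and -1.90 and then at -6.15, -6.61 and -7.12, so that vehicle array 2 lay among the DHT arrays (adjusted p = 0.48). On vehicle arrays 1 and 3 more probes were well above background than on vehicle array 2, 96.5% and 97.0% against 70.5%. Without vehicle array 2 the test called 7578 of 29119 genes and 8 of the 29 muscle genes, a like share: Eno3 higher and Atp2a1, Cacng1, Myh4, Mylk2 (a myosin light chain kinase), Tnnc2 (the fast troponin C), Tnnt3 and Trim54 lower. Without vehicle arrays 1 and 3, which leaves 1 vehicle array whose own spread is not known, the median was 0.13 and 17 of 26 genes were positive. Of 33 further muscle genes tested 24 were negative and none was called.

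Whether the DHT effect differed between tissues was tested on the difference itself, in the fit over all tissues. That fit takes a common variance per gene from all arrays, so that the spread among skin arrays enters the error of every difference. For Trim54 the standard error was 0.40 in prostate alone and 2.57 for the difference between skin and prostate. No muscle gene passed the F test over the 4 tissues by limma, where 1.88% of all genes did, with the lowest adjusted p at 0.12 for Myl3. An unadjusted p under 0.05 was found for 8 of the 35 muscle genes and for 7402 of all 33846 genes, a like share. The difference between skin and prostate was called for no muscle gene either, against 1.67% of all genes (1.16% with the lower effect in skin). Its lowest adjusted p was 0.10, for Fbxo32. Here 4 of the 35 muscle genes and 4518 of all 33846 genes had an unadjusted p under 0.05. Without skin vehicle array 1 the F test called Ckm, Tnni2, Tnnt3 and Trim54, where 667 of 33762 genes (1.98%) were called.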

How the data were processed

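Per the labels' protocols, total RNA was amplified, labelled with Cy3 and hybridised to one-colour Agilent rat arrays. The authors deposited a background-subtracted intensity for each spot, with no normalization between arrays. The file headers name version 10.5.1.1 of Agilent Feature Extraction, while the submitters' processing notes name version 10.1, and limma. Of 42429 spots 1417 were controls. Gene symbols came from matching the probes' accessions to RefSeq names of GRCr8, which gave 10813 of 41012 probes a symbol.

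The values tested were log2 of the deposited intensity minus the array's 75th percentile, with outlier spots left out. Probes well above background on at least 3 fitted arrays were kept, and the brightest probe stood for a gene, so that the ovary value of Myh3 comes from its second probe. The fits were made with limma 3.58.1 (R 4.3.3) in 1 tissue at a time, with Benjamini-Hochberg adjustment over all genes at 0.05. Errors are standard errors for differences. The fit over all tissues had slide as a random block (correlation 0.0806, from 2000 genes). The 6 slides held all 4 tissues and 1 treatment each, so that slide and treatment cannot be told apart. Where a group was dim on every array, the difference is given as at least N-fold, against the lowest signal well above background. The normexp alternative used median spot and background signals. On simulated data the skin model, run on 24029 genes, recovered 40% of changes of 2 log2 units and 92% of changes of 4. The prostate model, on 22608 genes, recovered 82% and 96%. False calls numbered 6 and 5. These shares are over 50 genes changed in the simulation and give no rate for the muscle genes. Among the latter Myh4, at 4.73 ± 4.43 in skin, was not called.

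The muscle genes, the other lists and the tests were chosen with earlier results of these data known. Values on every array are given for genes called in a DHT comparison and for those that define fast and slow fibres, with some others chosen after their values were seen. The number of arrays limits the precision. One further gene is not reported here.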

Additional observations from a re-analysis of the deposited data

Results flagged for a closer look

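The forebrain vehicle array that failed quality control entered no test. Of 6 muscle genes that were not well above background on either of the other forebrain vehicle arrays, 5 were well above background on it, namely Myl2, Tnni1, Chrna1, Myod1 and Mstn. This is no more than the share over all probes. Of 9681 probes dim on both other arrays 95.4% were well above background on it, as were 98.4% of all probes and 34 of the 35 muscle genes.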

How the results depend on the processing

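Without scaling between arrays the median of all genes shifted to -0.30 in skin, -0.72 in prostate, -0.52 in ovary and 0.72 in forebrain. The muscle genes called were then 6 in skin (23 genes in all), 12 in forebrain (2868 genes in all) and 10 in the F test over tissues (5096 in all), and their median was -0.57 in prostate and -0.14 in forebrain. Normexp background correction gave 1 call in prostate (648 in all) and 8 in forebrain (500 in all). Keeping dim probes gave 1 in prostate (619 in all). Array weights gave 5 in prostate (5168 in all), 7 in ovary (7746 in all), 1 for the difference of the DHT effect between skin and prostate (1278 in all) and 6 in the F test (10058 in all). Quantile normalization gave 13 genes in all in ovary and turned Myl1 there to 0.074. Leaving out 1 array gave 1 to 5 muscle genes called in prostate (574 to 2746 in all), 0 to 8 in ovary (0 to 7578) and 0 to 1 in forebrain (0 to 49). With 1 skin array left out the F test called 0 to 4 muscle genes (607 to 1022 in all). The 100 largest positive fold changes in skin then held 3 to 21 muscle genes. Leaving out 1 skin array at a time, Myh7 ranged from -1.39 (without DHT array 3) to 3.61, Tnnt1 from -0.030 (the same array) to 3.91 and Mstn from -0.40 (without vehicle array 1) to 3.55, and Myh7 was at -0.06 without vehicle array 1. With both left out Myh7 was at -3.00 and Tnnt1 at -1.15, and 4 muscle genes were among the 100. Without ovary vehicle arrays 1 and 3, with 1 vehicle array left, the ovary median was 0.13. These last 2 settings, the unscaled values, a percentile over all spots and the kept outlier spots were chosen after the data had been seen. The cause of these shifts was not tested.

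Samples with the same number in the vehicle and DHT groups did not deviate together (correlations of -0.43 to 0.01 across genes). No pairing by number was seen, but so few samples per group cannot exclude one. With the replicate number as a block no muscle gene was called in any tissue, and in prostate 0 genes in all. Trim54 had an adjusted p of 0.058 there by limma. The block leaves fewer residual degrees of freedom, so that its lack of calls does not decide on a pairing. Over single muscle genes, 546 of the values under other settings kept direction and side of the threshold, 31 passed it newly, 16 lost it and 7 changed sign.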
